A study of Mus musculus with 10 samples.

Results

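Distal knockout-gained regions with weak wildtype peaks were stretches of open chromatin that ranked among the strongest ATAC-seq peaks of both SoxC double knockout libraries and of no wildtype library, while a full wildtype peak list still held a peak there. The lists were restricted to chromosomes 1 to 19, overlapping peaks of a library were merged, and the 50000 strongest peaks of each of the 5 libraries were each cut to a window that reached 250 bp to either side of its summit. Windows overlapping between libraries were merged into regions, and a region was distal when its centre lay more than 1 kb from every end of a coding gene. Regions were selected on their ranks in the ATAC lists: 6059 of 76102 (7.96%) had a window in each knockout library but in no wildtype library, and 5566 of these were distal (8.97% of distal regions). Of all 76102 regions, 5165 (6.79%) met the whole rule, which was 8.32% of the 62044 distal regions. A further 401 distal regions of both knockout libraries had no peak in any wildtype list, and 4492 distal regions had a window in every wildtype but neither knockout library (wildtype-only, 7.24% of distal regions). The 18517 distal regions found in all 5 libraries (shared) served as the other point of comparison.

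The tissue was epithelium of the cochlear duct, taken from mice at E13.5 and freed with dispase and collagenase. ATAC-seq, in which a transposase cuts accessible DNA, was made from 2 SoxC double knockout and 3 wildtype samples of unsorted tissue, described as whole epithelia in the protocol and as whole organ in the titles. Sox4 binding was mapped by CUT&RUN, which the titles call ChIP, in 3 samples of p27kip1-GFP positive wildtype progenitors sorted by flow cytometry. For the ATAC samples the labels give neither the deleted genes nor a Cre driver, strain or litter, although the single-cell knockout of the series, not analysed here, was Pax2cre SoxC fl/fl. The spread between samples may therefore be technical. In unsorted tissue, more cells of a type with a given peak and more open chromatin per cell cannot be told apart.

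SoxC proteins are transcription factors that bind DNA through an HMG box and act in progenitors that are about to differentiate. At this stage progenitors in the floor of the duct stop dividing, and the hair cells and supporting cells of the organ of Corti form from them. Distal open regions often hold enhancers, which can lie inside the introns of a gene or far outside it and need not act on the nearest gene.

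The knockout-gained regions seldom lay at transcription starts: 68 of 5165 (1.32%, exact binomial 95% interval 1.02 to 1.67%) overlapped the window of 250 bases before to 50 after a start listed by RefSeq, against 115 of 4492 wildtype-only regions (2.56%) and 1537 of 18517 shared regions (8.30%). The start itself lay inside the region in 52 knockout-gained (1.01%), 98 wildtype-only (2.18%) and 1424 shared regions (7.69%). Starts of coding genes were inside 15 knockout-gained regions. The rule on distance left out starts at the outer ends of coding genes in every class, so these coding starts lay within genes. The 4 upstream sequences printed here are of coding starts where both knockout summits fell within the sequence. Among such starts, these had the best ranks of the weaker knockout peak. They show the DNA at the point of highest signal, and all 4 starts lie within their genes. Each is the 250 bases before a start in the RefSeq table of GRCm38.p6 (mm10), written in the direction of transcription, and the 21 capitals are centred on the summit of knockout replicate 1.
Ece1, chr4:137913308-137913557, plus strand: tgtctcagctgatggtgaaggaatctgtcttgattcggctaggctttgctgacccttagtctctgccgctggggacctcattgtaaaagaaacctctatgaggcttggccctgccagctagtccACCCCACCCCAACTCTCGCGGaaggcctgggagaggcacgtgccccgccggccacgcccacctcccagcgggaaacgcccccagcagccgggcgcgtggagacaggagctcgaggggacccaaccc
Pacsin2, chr15:83432851-83433100, minus strand: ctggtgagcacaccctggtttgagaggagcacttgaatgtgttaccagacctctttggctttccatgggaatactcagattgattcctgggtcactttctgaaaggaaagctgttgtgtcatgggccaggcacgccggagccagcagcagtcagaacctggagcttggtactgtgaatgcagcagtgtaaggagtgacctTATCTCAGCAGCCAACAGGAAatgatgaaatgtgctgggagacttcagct
Anxa9, chr3:95307193-95307442, minus strand: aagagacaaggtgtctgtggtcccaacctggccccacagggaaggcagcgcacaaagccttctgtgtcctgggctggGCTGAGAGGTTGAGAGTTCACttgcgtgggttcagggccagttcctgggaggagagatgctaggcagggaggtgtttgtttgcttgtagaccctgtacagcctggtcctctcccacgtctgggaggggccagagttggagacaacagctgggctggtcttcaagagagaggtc
Ttll6, chr11:96133536-96133785, plus strand: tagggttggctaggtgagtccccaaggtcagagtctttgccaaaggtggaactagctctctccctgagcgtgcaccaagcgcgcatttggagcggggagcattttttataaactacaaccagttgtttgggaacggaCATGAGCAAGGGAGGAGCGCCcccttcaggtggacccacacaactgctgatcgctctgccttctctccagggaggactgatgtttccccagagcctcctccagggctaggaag
Ece1 encodes an endothelin-converting enzyme, and its stretch was the richest in G and C (63.6%, with 14 CpG dinucleotides). Pacsin2, which encodes a membrane-bending protein of endocytosis, had 50.8% G and C and 2 CpG. Anxa9, a member of the annexin family, had 58.8% and 3 CpG, and Ttll6, which encodes a tubulin polyglutamylase, had 56.0% and 7 CpG. Over the 22 windows of coding starts that touched a knockout-gained region, the 300 bases had a median of 57.3% G and C and 7.5 CpG, against 57.0% and 14 CpG over the windows of all 20085 coding starts of the table.

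At the Ece1 start the fold enrichment, the peak height relative to local background in that library, was 7.44 and 7.89 in the knockout libraries, against 4.21, 3.03 and 4.09 in the wildtype libraries. At the Ttll6 start it was 13.4 and 10.3 in the knockout libraries, against 3.88, 3.12 and 2.85 in the wildtype libraries. At the Pacsin2 start it was 11.8 and 10.5 in the knockout libraries, against 4.11 and 4.32 in wildtype replicates 1 and 2, with no peak in replicate 3. At all 3 of these starts both knockout values lay above every listed wildtype value, as in 99.5% of the knockout-gained regions. The groups were also apart at the Anxa9 start, with 8.86 and 8.12 in the knockout libraries, against 3.35 in wildtype replicate 1 and 2.59 in wildtype replicate 3, and no peak in replicate 2.

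The peak lists differed between the genotypes as wholes. Before merging, the knockout lists held 299829 and 266873 peaks, against 196536, 166874 and 196345 in the wildtype lists. Chromosomes 1 to 19 held 293665 and 261289 of the knockout peaks and all of the wildtype peaks. After merging on these chromosomes, the knockout lists held 208902 and 192810 peaks, against 165038, 145099 and 173032 in the wildtype lists. No read totals were given, so the depth is unknown. The names of the knockout lists, unlike those of the wildtype lists, state a p threshold and a maximum list length. The lowest −log10 p listed was 3.98 and 2.00 in the knockout lists, against 2.00 in each wildtype list. At rank 50000 the significance of a peak was a −log10 p of 104 and 50.5 in the knockout lists, against 19.0, 10.5 and 8.75 in the wildtype lists. Ranks were therefore compared in place of −log10 p, and the part of these list differences in the choice of regions was not tested.

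In the full wildtype lists, 2083 of the knockout-gained regions (40.3%) had a peak in all 3 libraries, 1906 (36.9%) in 2 and 1176 (22.8%) in 1. Wildtype replicate 1 held a peak at 4853 of them (94.0%), replicate 2 at 3417 (66.2%) and replicate 3 at 2967 (57.4%). The most frequent partial patterns were replicates 1 and 2 without 3 (1135 regions), replicate 1 alone (936) and replicates 1 and 3 (699). Only 127 regions rested on wildtype replicate 2 alone and 113 on replicate 3 alone.

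Where a peak was listed, its median fold enrichment was 12.5 and 10.0 in the knockout libraries, against 4.79, 3.60 and 3.36 in the wildtype libraries. These values chose the regions, so they describe them and were not tested. The middle 50% of values ran from 9.86 to 15.4 and from 8.65 to 11.9 in the knockout libraries, against 3.88 to 5.71, 3.12 to 4.20 and 2.85 to 3.88 in the wildtype libraries. The lowest knockout fold was above the highest listed wildtype fold in 5141 regions (99.5%), which the choice of regions favoured. This share was not counted over all regions. In the shared regions the medians were 14.4 and 13.7 in the knockout libraries, against 12.6, 9.15 and 7.97 in the wildtype libraries, so there too the knockout libraries had the higher values. The ratio of the mean knockout to the mean listed wildtype fold had a median of 2.80 in knockout-gained regions and 1.34 in shared regions. It was 2.77, 2.82 and 2.79 in regions with a peak in 1, 2 and 3 wildtype lists. Wildtype libraries without a peak did not enter the mean, so these ratios cannot compare the size of the difference between such regions.

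**Figure D1:**
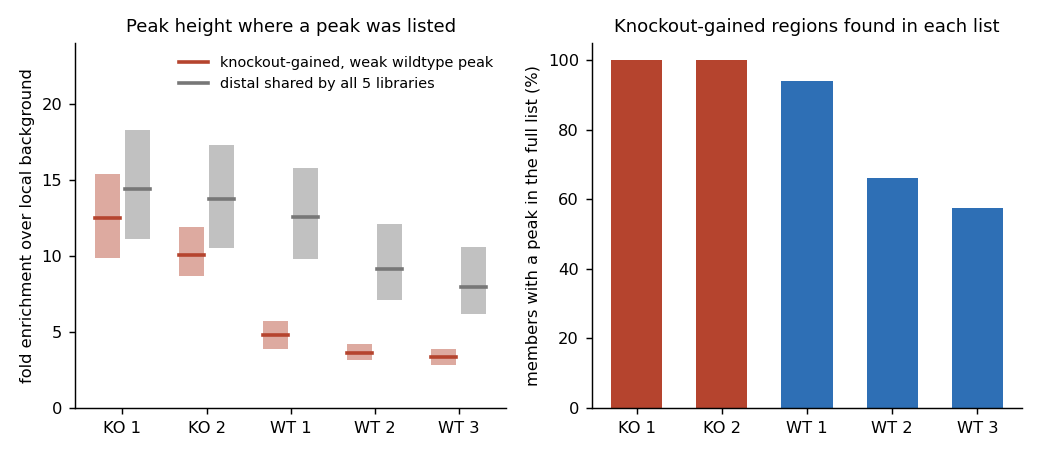
Left, fold enrichment over local background (lines are medians and boxes the middle 50% of regions) in each ATAC library for knockout-gained and shared distal regions. Right, the percentage of the 5165 knockout-gained regions with a peak in each full list, which was 94.0%, 66.2% and 57.4% in the wildtype lists.

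The plot of peak height shows the knockout-gained regions close below the shared regions in the knockout libraries and far below them in the wildtype libraries. In ranks, the median position was 35068 and 37980 in the knockout libraries, against 71672, 75606 and 80344 in the wildtype libraries. Many members were near the limit of the rule: the weaker knockout peak ranked beyond 40000 in 2619 regions (50.7%) and within 25000 in 344 (6.66%). The best wildtype rank was 50001 to 60000 in 1972 regions (38.2%), 60001 to 100000 in 2649 (51.3%) and beyond 100000 in 530 (10.3%). Just inside the limit, a region near Setbp1 had a weaker knockout rank of 50000, and just outside it a region near Galr1 had 50001. A region near Pdss2 was kept with a best wildtype rank of 50001, and a region near Pth2r with 49992 was not. On distance, a region of Lrch1 at 1006 bp from a gene end was kept and one of Rgs11 at 996 bp was not. The rule also excluded 4088 distal regions that were in both knockout libraries and in exactly 1 wildtype library, 2192 of them in replicate 1, 937 in replicate 2 and 959 in replicate 3.

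In 14 regions the wildtype peak was not weak, since it ranked within 50000 and only its summit window lay elsewhere. The clearest was a region 127817 bp from Fgf20, which encodes a growth factor of the prosensory epithelium. There the ranks were 10572 and 10189 in the knockout libraries, against 8079, 4733 and 7306 in the wildtype libraries, and the folds were 13.9 and 13.7 in the knockout libraries, against 13.4, 13.48 and 10.2 in the wildtype libraries. Wildtype ranks were better than the knockout ranks in all 3 libraries, so the label of a weak wildtype peak holds for this region only in its position.

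The remaining regions with the best knockout ranks had wildtype peaks far down the lists. The region at chr14:61836749-61837262, 223916 bp from Kcnrg, ranked 3807 and 5787 in the knockout libraries, against 66299, 51232 and 84307 in the wildtype libraries. Its folds were 17.5 and 18.5 in the knockout libraries, against 5.48, 5.04 and 3.36 in the wildtype libraries. A region 5620 bp from Acot1, an acyl-CoA thioesterase gene, ranked 2676 and 5903 in the knockout libraries, against 53812 in wildtype replicate 3 and no peak in the other 2 wildtype lists. The rule on ranks itself set the genotypes apart in these regions.
A region 6506 bp from Comp, which encodes a cartilage matrix protein, ranked 9438 and 4989 in the knockout libraries, against 60585 and 98853 in wildtype replicates 1 and 2. Inside St6galnac2, a sialyltransferase gene, the ranks were 4987 and 9734 in the knockout libraries, against 75845 and 89428 in wildtype replicates 1 and 2. Both regions had no peak in wildtype replicate 3. A region 114456 bp from Adamts15, which encodes a secreted protease of the matrix, ranked 6838 and 9903 in the knockout libraries, against 75536, 72654 and 96246 in the wildtype libraries. The group of 8 was completed by a region inside Mocos, which encodes an enzyme that activates molybdenum cofactor, with folds of 19.5 and 17.8 in the knockout libraries, against 5.49, 2.66 and 3.91 in the wildtype libraries. The last was a region inside Pde6a, which encodes a subunit of the rod photoreceptor phosphodiesterase, with 15.9 and 17.0 in the knockout libraries, against 6.45, 5.04 and 4.40 in the wildtype libraries. Its wildtype ranks of 55196, 51510 and 54442 were close to the limit.

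Knockout-gained regions lay inside coding genes in 2775 cases (53.7%), outside but within 10 kb in 896 (17.3%), at 10 to 100 kb in 1144 (22.1%) and farther than 100 kb in 350 (6.78%). The share farther than 100 kb was lower than among wildtype-only (24.6%) and shared regions (11.7%). The 401 knockout regions with no wildtype peak resembled the members in this, with 60.8% inside genes and 5.24% farther than 100 kb. Surroundings were also richer in genes, with a median of 12 coding genes within 500 kb (quartiles 6 and 20) around the members, against 4 (2 and 8) around wildtype-only and 8 (4 and 14) around shared regions. The members seldom sat in clusters: 228 (4.41%) lay within 5 kb of another member, against 3.23% of wildtype-only and 9.93% of shared regions.

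By chromosome, members were most frequent relative to shared regions on chromosomes 11 and 19, with 49.1 and 49.0 members for every 100 shared regions. They were least frequent on chromosomes 3, 16 and 18, with 13.8, 18.1 and 18.6. Chromosome 11 held 461 members, 8.93% of them, against 3.21% of wildtype-only and 5.07% of shared regions. Chromosome 3 held 3.47% of the members, against 8.57% of wildtype-only and 6.99% of shared regions. The copy number of chromosomes in these samples was not tested.

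**Figure D2:**
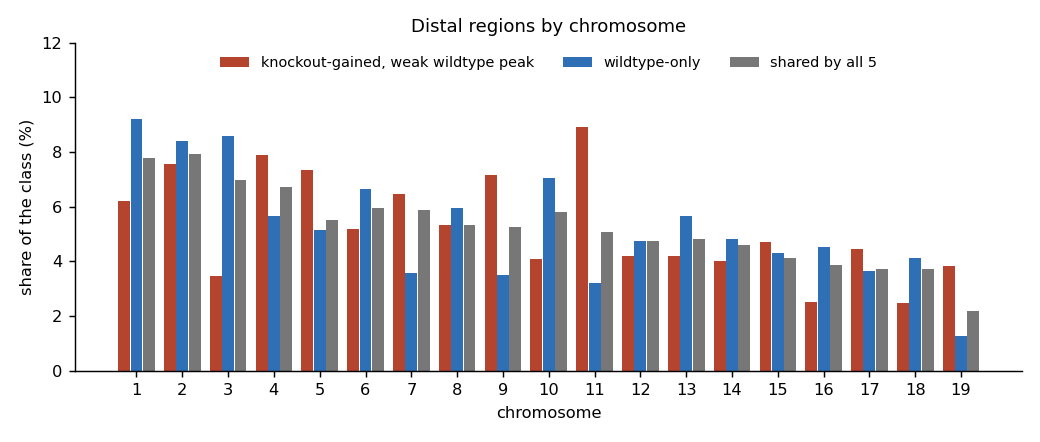
Percentage of each class of distal regions (knockout-gained with a weak wildtype peak, wildtype-only and shared) on each of the 19 autosomes. The knockout-gained share stands highest on chromosome 11 (8.93%) and is lowest on chromosome 18 (2.48%).

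The plot by chromosome shows that on chromosomes 4, 5, 7, 9, 11, 17 and 19 the knockout-gained share was above and the wildtype-only share below that of the shared regions. Chromosomes 1, 2, 3, 6, 10, 12, 13, 14, 16 and 18 had the opposite order.

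Regions were given to the closest coding gene up to 100 kb away, which placed 4815 of the 5165. At least 1 member fell to 3607 of 20665 genes (17.5%), at least 2 to 870 (4.21%) and at least 3 to 245 (1.19%). Of the 245 genes, 184 had 3 regions, 43 had 4, 9 had 5, 5 had 6, 3 had 7 and 1 had 8. Together they held 828 regions, 578 of them inside the gene. In 107 genes all the regions were inside, and in 27 none was. The number with 3 or more was similar for wildtype-only regions (238 genes, 1.15%) and larger for shared regions (1951 genes, 9.44%). Both kinds numbered 3 or more at 11 genes, which was 4.49% of the 245 and 4.62% of the 238, against 1.15% and 1.19% over all coding genes: Nckap5, Ldlrad3, Slc25a13, Ccser1, Myo16, Rbms3, Ank3, Slc25a21, Rbfox1, Svil and Ctif. There was no wildtype-only region at 183 of the 245 genes (74.7%), against 88.9% of all coding genes, and no shared region at 45 (18.4%), against 62.3% of all. Members outnumbered the shared regions at 145 of the 245. The count of such genes was 426 without knockout replicate 1 and 525 without knockout replicate 2, and 2242 when a region counted for every coding gene within 100 kb. The number of members was 7757 without knockout replicate 2.

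**Figure D3:**
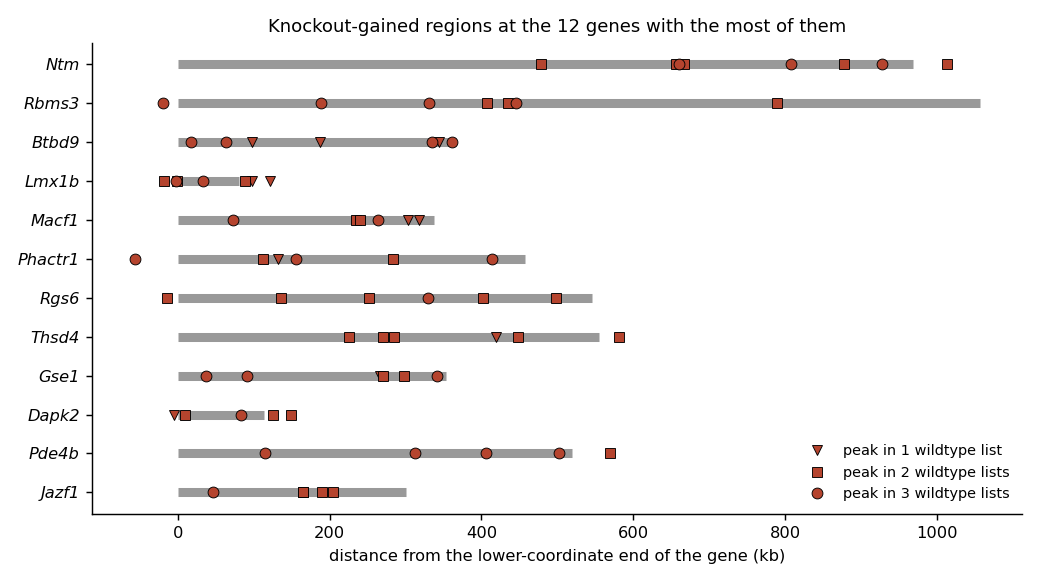
Knockout-gained regions (symbols, by the number of wildtype lists with a peak) along the 12 genes with the most of them, placed by their distance in kb from the lower-coordinate end of the gene (grey bar). Ntm carries 8 regions, 7 of them inside, and Lmx1b carries 7, only 1 of them inside.

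The gene with the most regions was Ntm, which encodes the neural adhesion molecule neurotrimin and spans 969 kb at chr9:28994749-29963269. It had 8 members beside 2 wildtype-only and 11 shared regions. Its strongest member, at chr9:29661403-29661908, had folds of 15.9 and 14.0 in the knockout libraries, against 5.71 in wildtype replicate 1, 3.25 in wildtype replicate 3 and no peak in replicate 2. The weakest, 45003 bp beyond the gene, ranked 49987 and 44663 in the knockout libraries, against 71984 and 62052 in wildtype replicates 1 and 2. All 8 had a peak in at least 2 wildtype lists, and as the map of genes shows, 3 of them lay close together inside the gene.

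Rbms3, an RNA-binding protein gene of 1057 kb, had 7 members, 4 wildtype-only and 12 shared regions. The member at chr9:117008177-117008679 ranked 11115 and 12411 in the knockout libraries, against 88728 and 96638 in wildtype replicates 2 and 3. Its folds were 22.4 and 21.3 in the knockout libraries, against 3.36 and 3.11 in these wildtype libraries, and wildtype replicate 1 listed no peak. The neighbour at chr9:116979462-116979963 had folds of 18.9 and 17.9 in the knockout libraries, against 5.25 and 3.12 in wildtype replicates 1 and 2. In both regions the knockout values stood several times above the wildtype ones. Over all 7 regions the ratio of knockout to wildtype fold ranged from 2.57 to 6.76.

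Btbd9, which encodes a BTB-domain protein, had all of its 7 members inside its 367 kb, and no wildtype-only region. Its members differed in strength: the region at chr17:30577012-30577516 ranked 20217 and 9411 in the knockout libraries, against 73978, 140152 and 68773 in the wildtype libraries. The region at chr17:30402534-30403041 ranked 41805 and 49452 in the knockout libraries, against 103177 in wildtype replicate 1 alone. Macf1, which encodes a protein that links actin and microtubules, carried 6 members inside 338 kb and only 1 shared region. The strongest of these had folds of 16.5 and 15.9 in the knockout libraries, against 5.25, 3.12 and 3.11 in the wildtype libraries.

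Lmx1b, a LIM-homeodomain transcription factor gene known for dorsal limb patterning, was the shortest of the genes with 6 or more members (80.2 kb) and had 6 of its 7 members outside. The one at chr2:33659161-33659662, 17953 bp outside, had folds of 17.95 and 16.8 in the knockout libraries, against 6.85 in wildtype replicate 1 and no peak in the other 2. The one inside the gene had 5.96 and 5.29 in the knockout libraries, against 3.01, 3.34 and 3.73 in the wildtype libraries. No wildtype-only and only 2 shared regions were assigned to Lmx1b. Dapk2, a death-associated kinase gene of 114 kb, had 3 of 5 members outside, and the strongest of them, 35042 bp beyond the gene, reached 29.3 and 23.0 in the knockout libraries, against 6.62 and 3.36 in wildtype replicates 1 and 2.

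Further genes with 6 members were Phactr1 (an actin and phosphatase regulator), Rgs6 (a regulator of G-protein signalling), Thsd4 (a fibrillin-binding matrix protein) and Gse1. The ratio of knockout to wildtype fold ranged from 1.12 to 2.08 over the 6 members of Gse1 and from 2.52 to 4.48 over those of Phactr1. The Gse1 member with the lowest ratio, at chr8:120495006-120495525, had folds of 5.68 and 6.37 in the knockout libraries, against 5.39 in wildtype replicate 1. The Phactr1 member with the highest ratio, at chr13:42623421-42623934, had 23.9 and 13.3 in the knockout libraries, against 4.79, 4.80 and 2.85 in the wildtype libraries. Genes with 5 members were Dapk2, Pde4b (a cyclic AMP phosphodiesterase), Jazf1, Kalrn (a guanine nucleotide exchange factor), Ctif, Slit3, Rbfox2 (a splicing regulator), Septin9 (a septin of the cytoskeleton) and Msi2 (an RNA-binding protein of stem cells). Tex14 and Rora entered the 20 genes with 4 members each, as their best regions were strong. Tex14, known for the bridges between male germ cells, had a region with folds of 19.1 and 19.0 in the knockout libraries, against 5.93, 2.64 and 3.88 in the wildtype libraries. Rora, a nuclear receptor gene, had one 11523 bp outside with 19.2 and 17.9 in the knockout libraries, against 3.20, 2.16 and 2.85 in the wildtype libraries.

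Genes with many knockout-gained regions were long when each region was given to its closest gene. The median gene length was 135 kb for the 245 genes (quartiles 67.9 and 287 kb), 71.4 kb for genes with 2 regions, 36.0 kb for genes with 1 and 14.5 kb for genes with none. The same order held for the other classes, with medians of 315 kb for the genes with 3 or more wildtype-only regions and 107 kb for those with 3 or more shared regions. Over 20665 genes Spearman's rank correlation between the number of regions and length was 0.298 for members, 0.312 for wildtype-only and 0.468 for shared regions, as a description across genes that share libraries and that offer more room when long. Of the 245 genes, 146 were longer than 100 kb, 60 longer than 300 kb and 19 shorter than 30 kb. The median was 22.2 kb when a region counted for every gene within 100 kb, against 17.5 kb over all coding genes. It was 214 kb with regions inside genes only and 229 kb for genes with 4 or more.

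**Figure D4:**
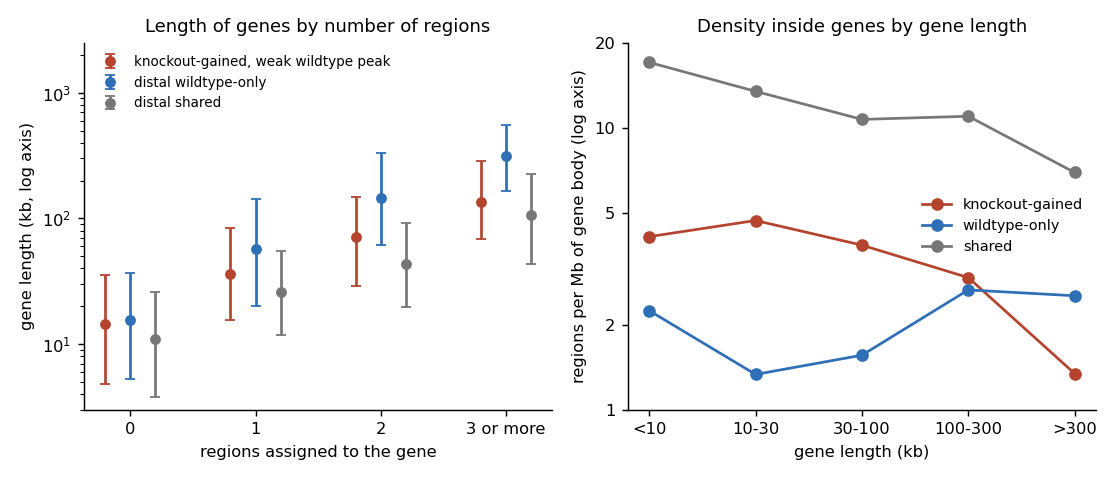
Left, gene length in kb on a log axis (points are medians, bars the quartiles) by the number of regions assigned, for 3 classes of distal regions. Right, regions per Mb of gene body (log axis) by gene length, where the knockout-gained value was 1.34 and the wildtype-only value 2.54 in genes over 300 kb.

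Per length of gene body, the members were densest in short and middle-sized genes. They numbered 4.11 per Mb in genes under 10 kb, 4.69 in genes of 10 to 30 kb, 3.83 at 30 to 100 kb, 2.94 at 100 to 300 kb and 1.34 above 300 kb. The wildtype-only regions numbered 2.25, 1.33, 1.56, 2.66 and 2.54 per Mb in the same classes, lowest at 10 to 30 kb. Shared regions numbered 17.0, 13.4, 10.7, 10.97 and 6.93 per Mb. The density above 300 kb relative to that at 10 to 30 kb was 0.287 for members (95% counting interval 0.251 to 0.328) and 1.90 for wildtype-only regions (1.58 to 2.30). For wildtype-only regions the class of 10 to 30 kb was the lowest, and their density above 300 kb was close to that under 10 kb (2.54 against 2.25 per Mb). Genes over 300 kb thus had the lowest density of members although 11.3% of them carried 3 or more, against 0.196% of genes of 10 to 30 kb. For members this ratio was 0.529 with the 100000 strongest peaks per library. The plot of density by gene length shows the members above the wildtype-only regions in every class up to 300 kb and below them in genes over 300 kb.

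The longest genes with 3 or more members were Rbfox1 (1528 kb, a neural splicing regulator), Pde4d (1302 kb, a cyclic AMP phosphodiesterase), Ccser1 (1203 kb) and Rbms3. Rbfox1 had 3 members beside 3 wildtype-only and 7 shared regions, and Pde4d had 3 members beside 20 shared regions. The shortest were Bloc1s4 (1.31 kb, a subunit of a complex of lysosome-related organelles), Tmem174 (2.43 kb), Rpl14 (3.14 kb, a ribosomal protein) and Arl4c (3.97 kb, a small GTPase). At Bloc1s4, Tmem174 and Rpl14 all 3 members lay outside the gene, and the 3 at Bloc1s4 lay within 3.73 kb. Chosen after their values were seen, the genes with the most members per length among those with at least 3 inside were 4931429L15Rik (15.7 per 100 kb), Rhof (12.7), Fam83f (10.5), Ezh1 (8.49), Exoc1 (7.32) and Srcin1 (6.07). Ezh1, which encodes a histone methyltransferase of the Polycomb group, had 3 members with ratios of knockout to wildtype fold of 4.34 to 4.41 and no shared region. Rhof, a small GTPase gene, had ratios of 0.992 to 1.24, so its members passed on rank while the peak heights were nearly equal.

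Among 21 gene lists, 26 of 53 genes of the Wnt pathway had at least 1 member and 4 had 3 or more, against 17.5% and 1.19% of all coding genes. The share with a member was above 17.5% in every list except that of Fgf signalling (17.2%), and the housekeeping list was among those above it. Median gene length was 43.5 kb for Wnt, 49.9 kb for hair cell and 64.6 kb for Hippo genes, against 17.5 kb over all coding genes. Medians were below 17.5 kb in the supporting cell, prosensory domain, roof and lateral wall, cell cycle, housekeeping (4.74 kb) and SoxC lists. The part of gene length in these shares was not tested. The Wnt genes held 41 members, 36.9 for every 100 shared regions, against 29.4 over all coding genes. Over the lists this ratio ran from 12.1 in the prosensory domain to 42.9 in the spiral ganglion neuron. Only the Wnt, spiral ganglion neuron, glia and melanocyte (33.3) and hair cell (29.7) lists lay above 29.4. Znrf3, which encodes a ubiquitin ligase that removes Wnt receptors, had 4 members. The one 29251 bp outside the gene had folds of 20.3 and 12.9 in the knockout libraries, against 4.34 in wildtype replicate 1 alone. Another, at chr11:5317942-5318449, was one of the 14 with a strong wildtype peak and had 8.42 and 6.83 in the knockout libraries, against 8.38, 4.88 and 3.39 in the wildtype libraries. Here the genotypes overlapped.
Ror2, a receptor of Wnt5a, had 3 members, the strongest at chr13:53159688-53160189 with ranks of 24992 and 23912 in the knockout libraries, against 52554 and 73113 in wildtype replicates 1 and 3. Wnt5b, a ligand gene, had 3 members, all inside its 112 kb. The one at chr6:119472128-119472629 had 13.4 and 9.63 in the knockout libraries, against 2.97, 2.88 and 3.36 in the wildtype libraries. Nkd1, an inhibitor of the pathway, also had 3, and Axin2, Sfrp1, Tcf7l1, Celsr1, Ror1 and Wnt4 had 2 each.

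Genes of axon guidance were long, with a median of 177 kb, and 23 of 39 had a member (59.0%, against 17.5% of all coding genes). They held 21.6 members for every 100 shared regions, against 29.4 over all coding genes. Slit3, a ligand of Robo receptors, had 5 members beside 12 shared regions, with the strongest at chr11:35302250-35302781 (folds of 11.8 and 8.998 in the knockout libraries, against 4.98, 3.81 and 4.32 in the wildtype libraries). Ephb1 and Ephb2, which encode ephrin receptors, had 3 each, all inside. The strongest of Ephb1 had 16.3 and 12.1 in the knockout libraries, against 3.88 and 2.33 in wildtype replicates 1 and 3. At these regions of Slit3 and Ephb1 the values of the genotypes were apart, as in nearly all regions chosen by the rule.

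In the list of the spiral ganglion neuron, 11 of 21 genes had a member (52.4%, against 17.5% of all coding genes), with 42.9 members for every 100 shared regions. Eya2, a transcriptional coactivator with phosphatase activity, had 3, all inside, and Ntrk2, the receptor of the neurotrophin BDNF, had 3. The member 62293 bp from Ntrk2 had 15.6 and 10.6 in the knockout libraries, against 6.62, 3.84 and 3.36 in the wildtype libraries. Neurog1 and Neurod1, the factors that specify these neurons, had 1 each, and Isl1 of the same list had none. These 3 names were chosen after their values were seen. These lists carry no expression values here, so whether neurons or other cells held the open chromatin was not tested.

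Of the genes of the prosensory domain 7 of 27 had a member (25.9%, against 17.5% of all coding genes), with 12.1 members for every 100 shared regions, against 29.4 over all coding genes. Pax2, a transcription factor of the early ear, had 3, and the one at chr19:44726444-44726946, 19655 bp outside, ranked 14368 and 28238 in the knockout libraries, against 61395, 63325 and 59671 in the wildtype libraries. Notch1, the receptor that separates hair cells from supporting cells, had 2 beside 7 shared regions. The stronger, at chr2:26499906-26500413, had low folds of 5.65 and 5.18 in the knockout libraries, against 3.19 and 3.04 in wildtype replicates 2 and 3. Dach1 had 2 members beside 4 wildtype-only regions.

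In the hair cell list 9 of 26 genes had a member (34.6%, against 17.5% of all coding genes) and none had 3. The list held 11 members beside 15 wildtype-only regions, against 4815 and 3389 over all coding genes. Pcdh15 and Xirp2, named after their values were seen, had no member but 6 and 3 wildtype-only regions. Myo7a, the unconventional myosin of the hair bundle, had 2, and the one at chr7:98051929-98052441 had folds of 17.7 and 13.46 in the knockout libraries, against 2.85 in wildtype replicate 3 alone. Both knockout values lay above the listed wildtype one, as in nearly all regions chosen by the rule. In the supporting cell list 6 of 22 genes had a member (27.3%), with 19.1 members for every 100 shared regions, against 29.4 over all coding genes. Id4, an inhibitor of bHLH factors, had 2 at 15336 and 23184 bp outside, the farther with 19.1 and 14.4 in the knockout libraries, against 6.85, 3.36 and 2.07 in the wildtype libraries. Etv4, an effector of Fgf signalling, had 2.

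The medial floor list had members at 8 of 20 genes, with Otoa at 2, and the roof and lateral wall list at 9 of 25 (36.0%), with Wnt4, Kcnq1 and Esrrb at 2 each. Lists of other cells that the tissue could hold were represented too: otic mesenchyme at 4 of 19 genes (21.1%), glia and melanocyte at 4 of 15 (26.7%), and blood, endothelium and macrophage at 5 of 19 (26.3%). Mitf, the master regulator of melanocytes, had 4 members. One was first by the rank of its weaker knockout peak. Its folds were 11.5 and 9.99 in the knockout libraries, against 3.42 and 3.18 in wildtype replicates 1 and 3. The highest knockout folds were at another member, with 14.3 and 12.6, against 6.16 and 2.85 in the same wildtype replicates. The part of such cells in the result was not tested.

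Among the other pathways, members were at 9 of 28 Notch, 5 of 29 Fgf, 15 of 43 BMP and TGF-beta, 7 of 24 Hippo, 6 of 17 Hedgehog and 6 of 20 retinoic acid genes, against 17.5% of all coding genes. Fgf and Hippo had 12.7 and 13.6 members for every 100 shared regions, against 29.4 over all genes. Bmpr2, a type II receptor of BMPs, had 2 members, and Maml3, a coactivator of Notch, had 3. Epithelial adhesion genes had a member at 11 of 31 (35.5%), with 3 each at Nectin1, Itga6 and Cdh4. The one of Nectin1 at chr9:43801906-43802408 had 17.4 and 11.9 in the knockout libraries, against 6.09, 4.56 and 3.36 in the wildtype libraries. Members were at 7 of 36 cell cycle (19.4%) and 4 of 16 housekeeping genes. Among the 3 SoxC genes, Sox4 had 1 member, 2 wildtype-only and 2 shared regions. The lists are short and were not tested against other genes.

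Few knockout-gained regions overlapped the 20000 strongest Sox4 CUT&RUN peaks of wildtype progenitors. The shares were 1.08%, 1.06% and 1.39% in Sox4 replicates 1, 2 and 3, with a mean of 1.18% ± 0.185 (SD, n = 3). Wildtype-only regions had 2.47%, 3.34% and 2.67%, with a mean of 2.83% ± 0.455, and shared regions had 4.05%, 5.00% and 4.70%, with a mean of 4.58% ± 0.486. The shares of members lay below those of both other classes in all 3 replicates. The difference was −3.40 percentage points against shared regions (SD 0.492) and −1.65 against wildtype-only regions (SD 0.547). An exact two-sided sign-flip test over the 3 replicates gave p = 0.25 for each difference, adjusted 0.25 over the 2 comparisons, which is the smallest value that 3 replicates allow. Peak strength moved with this result: shared regions whose weaker knockout peak was ranked beyond the first quartile of the members (4172 regions) had 2.33%, 3.38% and 2.88%. This subset was chosen on knockout rank and not on wildtype rank. The part of wildtype peak strength in the differences was not tested. The mean share of members was 0.568% with 10000 and 4.56% with all Sox4 peaks.

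**Figure D5:**
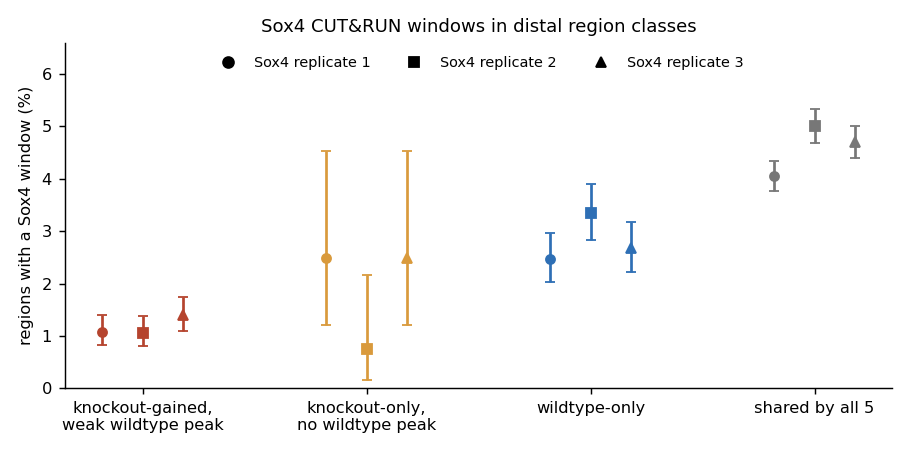
Percentage of the regions of 4 distal classes that overlap a Sox4 CUT&RUN window, by Sox4 replicate (symbols), with exact binomial 95% intervals for counting error. Knockout-gained regions lie between 1.06% and 1.39%, below the wildtype-only and the shared regions in every replicate.

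The plot of Sox4 shares shows the 401 knockout regions with no wildtype peak at 2.49%, 0.748% and 2.49%, with wide intervals that overlap those of the members. Within the members, the mean share was 1.11%, 1.05% and 1.34% in regions with a peak in 1, 2 and 3 wildtype lists. Windows of at least 2 Sox4 replicates were found in 5 members (0.0968%), in 40 wildtype-only regions (0.890%) and in 401 shared regions (2.17%). The 5 members, named after their values were seen, lay in Esrrb (an orphan nuclear receptor of the lateral wall), in Atp8a2 (a lipid flippase) and in Ubap2l, 13074 bp from Myh9 (a non-muscle myosin) and 59506 bp from Dock5. The Atp8a2 region was within the top 50000 peaks of 2 wildtype libraries, with ATAC ranks of 40204 and 28913 in the knockout libraries, against 21791, 32854 and 56441 in the wildtype libraries, and folds of 7.03 and 9.15 in the knockout libraries, against 8.16, 5.76 and 3.68 in the wildtype libraries. There the genotypes overlapped. The Esrrb region, at chr12:86475108-86475660, had ATAC folds of 9.47 and 8.29 in the knockout libraries, against 3.90, 2.25 and 2.59 in the wildtype libraries.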

How the data were processed

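ATAC-seq of 2 SoxC double knockout and 3 wildtype samples and Sox4 CUT&RUN of 3 wildtype samples were deposited by the authors as peak lists called per library. Of the lists of Sox4 replicate 1, one served only as an alternative. Per the submitters' processing notes, peaks were called with MACS2 (version not given) on mm10, and the knockout list names state a p threshold and a maximum list length that wildtype names do not. The fold enrichment of a peak over its local background is a deposited ratio, and its significance a deposited −log10 p. Files with a single-cell count per row and barcode gave no gene names and were not used.

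Overlapping peaks were merged per library keeping the strongest summit, ranked by −log10 p, and cut to windows reaching 250 bp to either side of the summit for the top 50000 ATAC and top 20000 Sox4 peaks. Genes were 20665 autosomal coding genes of a RefSeq GRCm38.p6 table. Distances to gene ends were measured from the centre of a region. Values in the ATAC lists chose the regions and were not tested. Sox4 shares were compared with an exact sign-flip test over replicates with Benjamini-Hochberg adjustment. Shares carry exact binomial intervals at 95%, which cover counting error only. The classing of regions and the sign-flip test were tested on simulated data. The regions and the 21 gene lists were chosen with earlier results of these data known.

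Named were the 20 genes with the most regions, up to 3 genes per list with at least 2, the 8 regions with the best worst knockout rank and the best 2 per number of wildtype lists, regions nearest the limits, and the 4 longest and 4 shortest genes with 3 or more regions. Other names are marked as chosen after their values were seen, or complete a small count, and 1 gene under the rule is not reported here. Alternatives varied the number of peaks, ranking, window, distance, overlap, gene assignment and the libraries left out. A planned count of sequence motifs needs a genome and was not run. Python 3.11.15, numpy 2.4.6, pandas 2.3.3, scipy 1.17.1 and matplotlib 3.10.9 were used.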

Additional observations from a re-analysis of the deposited data

How the results depend on the processing

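No paired analysis was possible because the result rests on counts of regions with no test between genotypes, and the replicate numbers carry no stated pairing. Counts, gene length and the Sox4 share had no direction that an alternative could reverse. No alternative reversed either density ratio. Both Sox4 differences stayed negative in every alternative, from −6.87 to −2.11 percentage points against shared regions. The difference against wildtype-only regions ran from −3.99 to −0.916.

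The number of knockout-gained regions was 2933 with the 25000 strongest peaks per library, 2083 with a peak required in all 3 wildtype lists and 2684 with at least 50% of the region covered. Leaving out 1 ATAC library gave 5973 to 7757 regions, 306 to 525 genes with 3 or more, median lengths of 119 to 154 kb and ratios of density over 300 kb to that at 10 to 30 kb of 0.274 to 0.364 for members and 1.44 to 2.12 for wildtype-only regions. Leaving out 1 ATAC or Sox4 library gave Sox4 shares of 1.07% to 1.33%.

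Genes with 3 or more regions numbered 53 with 25000 peaks, 138 and 38 with a peak in at least 2 and in all 3 wildtype lists, 63 with 50% coverage, 155 with genes within 10 kb, 130 with regions inside genes only and 2242 with every gene within 100 kb. Genes with 4 or more numbered 61, and with 2 or more 870.

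Their median length was 193 kb with 100000 peaks, 173 kb with regions beyond 5 kb, 214 kb with 50% coverage, 199 kb with genes within 10 kb, 214 kb with regions inside genes only, 22.2 kb with every gene within 100 kb, 229 kb for 4 or more regions and 90.1 kb for 2 or more.

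The Sox4 share was 1.45% with 25000 ATAC peaks, 0.992% with windows of 100 bp on each side, 0.568% with 10000 Sox4 peaks and 4.56% with all of them. The ratio of densities for members was 0.224 with 25000 peaks, 0.529 with 100000, 0.396 ranked by fold enrichment, 0.367 with a peak in all 3 wildtype lists and 0.388 with 50% coverage, and for wildtype-only regions 1.48 ranked by fold enrichment. The cause of these shifts was not tested beyond what fewer or more regions bring by construction. The density ratios and distances from the edge of a region (5081 regions, 242 genes) were added after the data were seen. Without read counts, differences in depth between the lists could not be measured.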

Other observations

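Of the 2390 knockout-gained regions outside coding genes, 455 lay inside a long noncoding RNA gene of the RefSeq table, and 38 members held a noncoding start. A region that holds the start of the noncoding RNA Gm41874 had folds of 22.8 and 15.3 in the knockout libraries, against 3.65 in wildtype replicate 1 and 2.85 in wildtype replicate 3. At the start of 1700041A01Rik the folds were 16.9 and 16.7 in the knockout libraries, against 4.34, 3.60 and 4.14 in the wildtype libraries. Gm34354 and Gm34558, on opposite strands, share the member 62293 bp from Ntrk2, and Gm46108 starts in a member inside Nectin1. These names were chosen after their values were seen.

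Of the 350 members farther than 100 kb from a coding gene, 79 lay inside a long noncoding RNA gene, and 24 were farther than 500 kb. The member at chr2:137499476-137500005, 382956 bp from Jag1, which encodes a Notch ligand of the prosensory domain, ranked 13951 and 14804 in the knockout libraries, against 60148, 95926 and 62651 in the wildtype libraries. Every wildtype rank was thus beyond 60000. The region was farther than 100 kb from Jag1 and entered no count per gene.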
